A study of Mus musculus with 4 samples.

Results

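The 10 genes described here, Wnt2, Wnt2b, Wnt3, Wnt3a, Wnt5a, Wnt5b, Wnt6, Wnt7b, Wnt8a and Wnt11, encode secreted Wnt ligands of the mouse gastrula and of the early trophoblast. They were taken by gene symbol from the count tables of 3 stages and followed across stages and cell types. The MS-LS table lists 10 of the 10 among 16639 genes, the OB-EB table lists 9 of them among 16341, and the EHF table lists 10 among 18640. Wnt11 is unlisted in the OB-EB table. In any table, 19616 genes are listed, and 17 of these are Wnt ligand genes. The 10 ligands held 99.2% of all Wnt ligand UMIs (unique molecular identifiers) in the MS-LS library, 95.8% in the OB-EB library and 95.4% in the EHF library.

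The study sequenced single cells of whole mouse embryos by a droplet method that counts UMIs per gene and cell. The embryos carried a tamoxifen-inducible Cre at the T locus and a tdTomato reporter at both R26 alleles. The labels write this genotype as TnEGP-CreERT2/+; R26Rtdtomato/R26Rtdtomato, so 1 of the 2 T alleles carried the cassette in every group.

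The group called MS-LS was collected at embryonic day 6 plus 21 hours, after tamoxifen at day 6 plus 5 hours. The group called OB-EB was collected at day 7 plus 3 hours, after tamoxifen at day 6 plus 21 hours. The group called EHF was collected at day 7 plus 14 hours, after tamoxifen at day 7 plus 7 hours. Each dose was 0.08 mg/bw by oral gavage, and no group went without tamoxifen. Each stage has 1 library made from several embryos, so differences between embryos or between library preparations cannot be told apart from differences between stages. A second EHF table holds the same counts in all 65128160 places, with 21 genes renamed, and was counted as the same library. MS-LS had 3635 cells with a median of 4251 UMIs, OB-EB had 3994 cells with a median of 2620.5, and EHF had 3494 cells with a median of 5584. Between libraries, 18 cell barcodes were shared by MS-LS and OB-EB, 12 by MS-LS and EHF, and 14 by OB-EB and EHF.

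Wnt ligands are lipid-modified in the secretory pathway and bind Frizzled receptors on nearby cells. Wnt3 is needed for the primitive streak to form, Wnt3a keeps the tail end of the axis growing, and Wnt5a and Wnt11 guide cell movement and elongation of the body. In the placenta, Wnt6 and Wnt7b are known from trophoblast, where Wnt7b takes part in the fusion of the chorion with the allantois.

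The labels name no cell types, so clusters were named from fixed marker genes, and each class name below stands for cells with those markers. All 19 Wnt ligand genes were held out of the genes used for clustering. Names were given to 20 of 25 clusters in MS-LS, 17 of 24 in OB-EB and 22 of 31 in EHF, which left 18.5%, 37.6% and 33.0% of the cells unnamed. Elf5 marked the extraembryonic ectoderm class at 209 CPM (UMIs per 1000000 UMIs of the class or library) in MS-LS against 2.48 in the other cells, at 175 against 6.87 in OB-EB and at 182 against 1.66 in EHF. T marked the primitive streak class at 122 CPM against 31.2 in MS-LS and at 391 against 68.4 in OB-EB. In EHF, T reached 636 CPM in the caudal epiblast class against 57.2 in the other cells. Of the 185 cells of that class, 121 were in cluster 12, with Mixl1, T, Tbx6 and Dll1 among its leading genes. Presomitic mesoderm scored next in cluster 12, so the class name does not set epiblast apart from streak or early presomitic cells. Postn, a marker listed for extraembryonic mesoderm, had no UMIs in that class in MS-LS or OB-EB. Doublet scores marked 6, 0 and 13 cells, and these cells were kept.

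Together the 10 ligands made up 46.6 CPM in MS-LS, 52.9 CPM in OB-EB and 89.4 CPM in EHF. At least 1 UMI of a ligand was found in 17.6% of the MS-LS cells, 13.5% of the OB-EB cells and 31.8% of the EHF cells. Ligand messages were thus sparse, and no cell held more than 7 UMIs of a ligand. Intervals below are 95% intervals of counting error only. They say nothing of differences between embryos.

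Wnt3, the ligand of streak formation, was lower in each later library. Its level was 11.7 CPM (10.2 to 13.4) in MS-LS, 7.14 (5.72 to 8.81) in OB-EB and 2.01 (1.44 to 2.73) in EHF. From MS-LS to EHF the log2 ratio was -2.54 (-3.06 to -2.05). Wnt3a, its close relative of the tail end, went the other way, with 0.668 CPM (0.345 to 1.17), 2.22 (1.46 to 3.22) and 6.63 (5.55 to 7.84) in the same order. Its log2 ratio of EHF over MS-LS was 3.31 (2.46 to 4.30). Wnt3 messages were thus lower and Wnt3a messages higher in the later libraries, each gene being read against itself. These whole-library levels mix level with kinds of cells, since no primitive streak or nascent mesoderm class was named in EHF.

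Wnt8a, a ligand of the caudal embryo, was at 1.28 CPM (0.811 to 1.92) in MS-LS, 1.89 (1.20 to 2.83) in OB-EB and 8.78 (7.54 to 10.2) in EHF, a log2 ratio of EHF over MS-LS of 2.78 (2.15 to 3.47). Wnt5b, a ligand of the non-canonical branch, was at 2.95 CPM (2.21 to 3.86), 5.75 (4.48 to 7.26) and 8.24 (7.05 to 9.59). Its EHF over MS-LS log2 ratio was 1.48 (1.03 to 1.96). Both genes thus had their highest level in the last library. Wnt5a, the other non-canonical ligand, had its highest level in the middle library, at 9.02 CPM (7.68 to 10.5) in MS-LS, 21.7 (19.1 to 24.5) in OB-EB and 13.9 (12.3 to 15.6) in EHF. Its log2 ratio was 1.27 (0.98 to 1.56) for OB-EB over MS-LS and -0.64 (-0.89 to -0.40) for EHF over OB-EB.

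The trophoblast ligands dipped in the middle library. Wnt6 was at 7.07 CPM (5.89 to 8.41) in MS-LS, 4.52 (3.40 to 5.88) in OB-EB and 25.7 (23.6 to 28.0) in EHF. Wnt7b was at 8.18 CPM (6.91 to 9.62), 4.60 (3.47 to 5.97) and 17.7 (15.9 to 19.6). The extraembryonic ectoderm class counted 538 cells in MS-LS, 63 in OB-EB and 515 in EHF, so whole-library levels of Wnt6 and Wnt7b mix level with number of trophoblast cells. The OB-EB number depends on naming, since unnamed cluster 11 held 183 more cells with Fabp3 and Elf5 among its leading genes, and the alternatives named 56 to 250 cells. Levels inside the class are given further below.

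Wnt2, a ligand of heart and vessel mesoderm, did not differ between libraries beyond the intervals, at 4.01 CPM (3.14 to 5.05), 4.27 (3.19 to 5.6) and 5.20 (4.26 to 6.29). Wnt2b, its close relative, had 13 UMIs in MS-LS, 10 in OB-EB and 12 in EHF. Wnt11 had 18 UMIs in MS-LS and 13 in EHF. These 2 genes were near the limit of detection, and little can be said of where they are made. The plot of levels by library shows the opposite course of Wnt3 and Wnt3a.

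**Figure D1:**
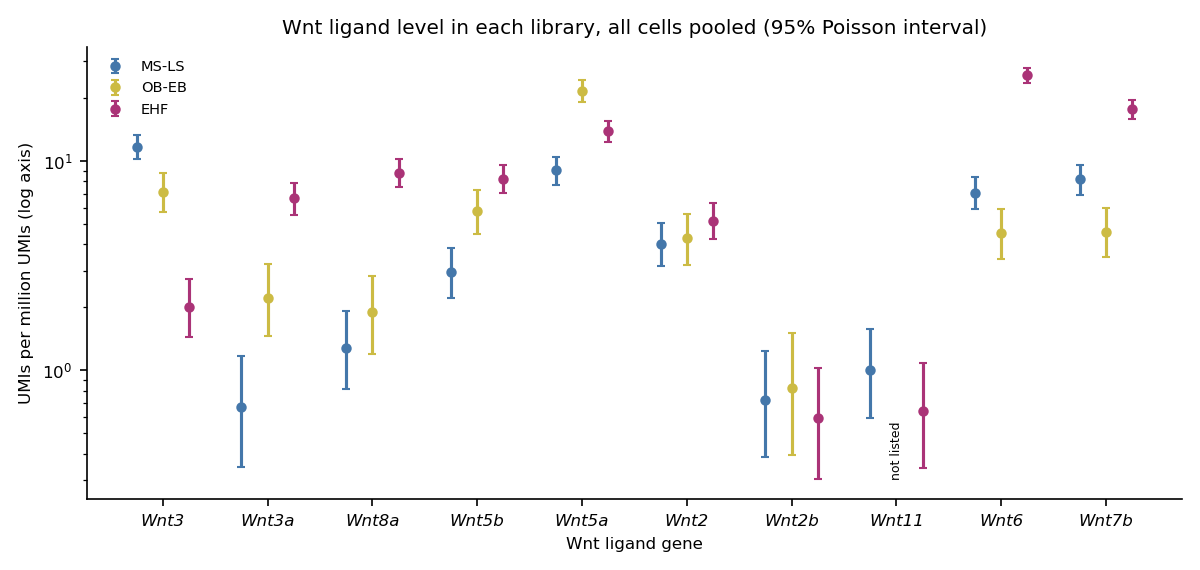
Level of each Wnt ligand gene in CPM on a log axis, with genes along the horizontal axis and 1 point per library with its 95% interval. Wnt3 goes from 11.7 CPM in MS-LS to 2.01 in EHF, and Wnt3a from 0.668 to 6.63.

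Promoters of 300 bases, 250 before and 50 after the transcription start, were taken from a RefSeq table on GRCm38.p6. It held 10 promoters for 7 of the ligand genes, and Wnt5a, Wnt7b and Wnt8a were not in it. Each promoter was read for the letters CTTTGA, the site of the TCF/LEF factors that act in Wnt signaling, TCACACCT, a T-box site, and GCCNNNGGC, the site of TFAP2 factors. Both strands were read and no matches overlapped. Of all 32851 promoters, 16% held CTTTGA, 1.28% held TCACACCT and 16.6% held GCCNNNGGC, and a match here describes letters only. The promoters of Wnt3 and Wnt3a are shown because these genes run in opposite directions over the stages. Wnt3 lies on chr11:103773925-103774224, + strand, and holds GCCNNNGGC at 236 and 114 bases before the start. Wnt3a lies on chr11:59290702-59291001, - strand, and holds it at 108 and 83 bases before the start. Bases in capitals mark the matches.
Wnt3: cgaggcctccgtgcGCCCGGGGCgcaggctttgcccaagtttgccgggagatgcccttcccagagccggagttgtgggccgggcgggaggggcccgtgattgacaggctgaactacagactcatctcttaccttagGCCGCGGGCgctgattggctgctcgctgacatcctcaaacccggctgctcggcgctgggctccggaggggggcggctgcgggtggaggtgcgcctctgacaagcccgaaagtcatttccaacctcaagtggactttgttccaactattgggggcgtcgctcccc
Wnt3a: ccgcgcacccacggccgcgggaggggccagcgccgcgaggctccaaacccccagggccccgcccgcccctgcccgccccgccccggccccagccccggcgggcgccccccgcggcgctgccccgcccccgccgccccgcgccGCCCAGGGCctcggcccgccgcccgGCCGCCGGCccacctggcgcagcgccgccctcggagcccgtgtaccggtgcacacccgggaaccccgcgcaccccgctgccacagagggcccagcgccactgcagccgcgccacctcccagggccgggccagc
These promoters are rich in G and C, at 65.7% for Wnt3 and 86.3% for Wnt3a, against a median of 52.7% over all promoters.

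Wnt5b has 3 listed starts, and the outer ones are shown because they differ in what they hold, with Wnt6 as the trophoblast ligand. Its first start, on chr6:119544298-119544597, - strand, holds GCCNNNGGC at 37 bases before the start and is 78.0% G and C. Its last, on chr6:119449337-119449636, - strand, holds CTTTGA at 71 bases before the start and is 55.0% G and C. Wnt6 lies on chr1:74771642-74771941, + strand, is 76.7% G and C, and holds GCCNNNGGC at 12 bases before the start.
Wnt5b, first start: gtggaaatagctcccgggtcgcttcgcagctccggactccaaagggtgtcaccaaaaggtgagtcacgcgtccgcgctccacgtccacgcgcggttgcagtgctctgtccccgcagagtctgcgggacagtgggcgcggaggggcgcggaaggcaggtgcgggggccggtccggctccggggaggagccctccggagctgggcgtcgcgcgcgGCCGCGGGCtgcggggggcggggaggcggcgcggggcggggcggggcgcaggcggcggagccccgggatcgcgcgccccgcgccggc
Wnt5b, last start: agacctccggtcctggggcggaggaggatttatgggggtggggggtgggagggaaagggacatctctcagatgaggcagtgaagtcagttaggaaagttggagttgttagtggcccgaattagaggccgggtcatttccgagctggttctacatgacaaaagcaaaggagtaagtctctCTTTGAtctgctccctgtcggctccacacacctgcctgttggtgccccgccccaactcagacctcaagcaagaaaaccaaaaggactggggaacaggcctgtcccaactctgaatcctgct
Wnt6: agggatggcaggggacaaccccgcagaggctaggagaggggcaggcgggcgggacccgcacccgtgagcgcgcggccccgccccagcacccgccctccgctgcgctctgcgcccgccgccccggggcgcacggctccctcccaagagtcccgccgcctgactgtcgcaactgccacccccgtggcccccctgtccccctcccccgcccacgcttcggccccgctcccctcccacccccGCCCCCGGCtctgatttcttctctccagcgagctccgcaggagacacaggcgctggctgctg
No ligand promoter in the table held TCACACCT, and Wnt2b and the middle start of Wnt5b held none of the motifs. Wnt2 held GCCNNNGGC at 55 bases before its start, and the first start of Wnt11 held CTTTGA on the reverse strand at 50 bases before and GCCNNNGGC at 236. Its other start held GCCNNNGGC at 38 and 24 bases before.

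Wnt3 was read first by class, because it marks the site where mesoderm forms. In MS-LS it was present in the streak, in the mesoderm that had left it and in visceral endoderm, and it was low in epiblast and in extraembryonic ectoderm. Nascent mesoderm had 32.3 CPM (24.5 to 41.7), primitive streak 20.8 (14.3 to 29.4), extraembryonic mesoderm 20.7 (13.1 to 31.0) and visceral endoderm 13.2 (9.33 to 18.1). Neighbors in this order did not differ beyond their intervals. Epiblast had 2.12 CPM (0.969 to 4.02) and extraembryonic ectoderm 2.28 (0.916 to 4.70), below the intervals of those 4 classes. Nascent mesoderm exceeded all other cells by a log2 ratio of 1.78 (1.32 to 2.23).

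By OB-EB, Wnt3 was lower in the visceral endoderm class and in the named mesoderm classes, while no change was resolved in the streak class. That class had 17.9 CPM (10.8 to 27.9) and nascent mesoderm had 9.36 (4.67 to 16.7). Visceral endoderm had 2.74 CPM from 3 UMIs. In EHF no named class held more than 5 UMIs of Wnt3, and the caudal epiblast class was at 4.44 CPM (1.44 to 10.4). An unnamed EHF cluster with Mesp1 and Cdx4 among its leading genes, cluster 5, had 13.3 CPM (7.11 to 22.8) and held 31.7% of the Wnt3 UMIs. This cluster was chosen after its values were seen.

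Wnt3a had low counts in the streak classes and was a ligand of the caudal epiblast class in EHF. In the primitive streak class it was at 2.61 CPM from 4 UMIs in MS-LS and at 8.47 CPM (3.87 to 16.1) in OB-EB. The MS-LS streak class did not differ beyond the interval from definitive endoderm, at 2.4 CPM. The caudal epiblast class of EHF had 53.3 CPM (40.7 to 68.6) and 44.4% of the Wnt3a UMIs. This exceeded the other EHF cells by a log2 ratio of 3.77 (3.26 to 4.28) and the presomitic mesoderm class, at 15.1 CPM (7.52 to 27.0), by 1.82 (0.88 to 2.90). A UMI of Wnt3a was found in 26.5% of the 185 caudal epiblast cells, and in 9.24% of them once each cell was thinned to 1500 UMIs, which leaves out 101, 406 and 165 cells with fewer UMIs in MS-LS, OB-EB and EHF. In extraembryonic ectoderm, with a median of 6933 UMIs against 5615, the share was 0.388%, and 0.0% after thinning.

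Wnt8a overlapped Wnt3a in the caudal embryo but reached further into neural cells. Caudal neuroectoderm had 39.7 CPM (29.5 to 52.3) of Wnt8a, and caudal epiblast had 32.9 (23.1 to 45.3). The log2 ratio between these classes, 0.27 (-0.37 to 0.93), spans 0, so their order is not resolved. Presomitic mesoderm had 12.3 CPM (5.64 to 23.4). For Wnt3a the caudal neuroectoderm class had 12.7 CPM (7.26 to 20.6), below the interval of caudal epiblast, so the neural side of the tail end differed from caudal epiblast in Wnt3a and not, as far as resolved, in Wnt8a. In the streak class Wnt8a was at 3.91 CPM (1.43 to 8.51) in MS-LS and at 4.71 (1.53 to 11.0) in OB-EB.

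Wnt5b, a non-canonical ligand like Wnt5a, was found in the same region. It was at 9.12 CPM (4.99 to 15.3) in the MS-LS streak class and at 14.1 (7.90 to 23.3) in the OB-EB streak class. In EHF the caudal epiblast class had 42.6 CPM (31.4 to 56.5), and its log2 ratio over presomitic mesoderm, at 9.59 CPM (3.86 to 19.8), was 2.15 (1.0 to 3.54). Wnt5b was therefore lower in the presomitic mesoderm class than in the caudal epiblast class. The node and notochord class had 45.7 CPM (19.7 to 90) of Wnt5b from 8 UMIs in 44 cells, an additional site outside the streak.

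An unnamed EHF cluster with Nkx1-2 and Cdx1 among its leading genes, cluster 6, was chosen after its values were seen. It had 31.9 CPM (20.7 to 47.1) of Wnt3a, 44.7 CPM (31.1 to 62.2) of Wnt8a and 25.5 CPM (15.6 to 39.4) of Wnt5b. Caudal epiblast markers scored best in it, though not far enough ahead for a name. Caudal ligands therefore also lay outside the named class.

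To set these ligands beside all genes, genes with at least 20 UMIs in both groups together were counted when their log2 ratio passed 1. The ligands tested differ between the libraries, and whether the counts differ between classes was not tested. In MS-LS, 2 of 7 ligands tested were higher in primitive streak than in other cells, Wnt5b and Wnt8a, against 4.67% of all 11993 genes, and 2 were lower, Wnt6 and Wnt7b, against 10.8%. In OB-EB, 6 of 8 were higher, against 6.57% of 11434 genes, and Wnt6 and Wnt7b were lower, against 8.60%. The 6 were Wnt2, Wnt3, Wnt3a, Wnt5a, Wnt5b and Wnt8a. In the streak cells of the authors in OB-EB, 3 of these did not pass 1, Wnt2 at 0.37 (-1.56 to 1.82), Wnt3 at 0.65 (-0.61 to 1.70) and Wnt5a at 0.18 (-0.60 to 0.87), so the count depends on how the streak is drawn. Wnt8a in the streak class, at 1.54 (-0.24 to 3.02) from 5 UMIs, is not resolved from 0, nor are the low Wnt6 and Wnt7b, from 2 UMIs and 1 UMI. For the caudal epiblast class of EHF, 4 of 8 were higher, Wnt3, Wnt3a, Wnt5b and Wnt8a, against 5.83% of 13456 genes, and 2 were lower, Wnt2 and Wnt7b, against 11.5%. Wnt3 there rests on 5 UMIs and Wnt2 on 3, and neither log2 ratio, 1.25 (-0.46 to 2.60) and -1.01 (-3.31 to 0.58), is resolved from 0. The median log2 ratio of the ligands was 0.75 in the MS-LS streak, 1.54 in the OB-EB streak and 0.92 in caudal epiblast, where the medians of all genes were 0.01, 0.11 and -0.04.

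Wnt5a was the broad ligand of mesoderm. In MS-LS it was at 40.6 CPM (31.9 to 51.1) in nascent mesoderm and 36.9 (26.5 to 50) in extraembryonic mesoderm, which do not differ beyond their intervals. The streak class had 14.3 CPM (8.98 to 21.7). Wnt5a thus appeared in cells that had left the streak more than in the streak itself. In the OB-EB classes this difference was not seen, with 62.1 CPM (48.0 to 79.0) in primitive streak, 52.7 (40.4 to 67.6) in nascent mesoderm and 39.0 (27.3 to 53.9) in extraembryonic mesoderm. In the cells that the authors called streak in OB-EB, Wnt5a was at 24.4 CPM (14.5 to 38.5), still below nascent mesoderm.

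In EHF, Wnt5a was at 39.2 CPM (26.8 to 55.4) in extraembryonic mesoderm, 33.8 (19.7 to 54.2) in paraxial mesoderm, 26.0 (15.7 to 40.7) in presomitic mesoderm and 20.4 (12.9 to 30.6) in caudal epiblast. Extraembryonic ectoderm had 0.844 CPM from 3 UMIs. A UMI of Wnt5a was seen in 22.0% of the EHF extraembryonic mesoderm cells and in 0.583% of extraembryonic ectoderm cells, and after thinning in 8.26% and 0.201%, with median depths of 5940 and 6933 UMIs. Wnt5a was thus found in mesoderm at each stage, beside the streak class in OB-EB and caudal neuroectoderm in EHF, at 15.1 CPM (9.08 to 23.5). Higher levels than in the named classes were seen in 2 unnamed clusters chosen after their values were seen. Cluster 16, led by Pitx1 and Hoxb6 and scoring best for extraembryonic mesoderm, had 74.2 CPM (55.6 to 97.1), and cluster 5 had 64.7 (49.7 to 82.7).

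Wnt2 was a mesoderm ligand at each stage, and in EHF its highest level among named classes was in the first heart field class. It was at 19.5 CPM (13.6 to 27.1) in the nascent mesoderm of MS-LS, where its log2 ratio over other cells was 3.09 (2.38 to 3.8), and at 14.4 (8.23 to 23.4) in extraembryonic mesoderm. In OB-EB it was at 13.2 CPM (7.20 to 22.1) in primitive streak and 11.9 (6.51 to 20) in nascent mesoderm. In EHF the first heart field class had 46.4 CPM (32.1 to 64.8), a log2 ratio over other cells of 3.66 (3.03 to 4.27), and paraxial mesoderm, next in order, had 27.9 (15.2 to 46.8). These 2 classes do not differ beyond their intervals. Extraembryonic mesoderm of EHF had 19.6 CPM (11.2 to 31.9), a log2 ratio over MS-LS of 0.45 (-0.65 to 1.54), and presomitic mesoderm 16.4 (8.50 to 28.7). In OB-EB extraembryonic mesoderm had 6.49 CPM of Wnt2 from 6 UMIs, and EHF over OB-EB was 1.60 (0.17 to 3.24). At resolution 8 this ratio was higher and lay outside that interval. Among the 100 first heart field cells, 27.0% had a UMI of Wnt2, or 12.0% after thinning, against 0.194% and 0.0% of extraembryonic ectoderm cells, with median depths of 6474.5 and 6933 UMIs.

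Wnt2b had 10 of its 13 MS-LS UMIs in nascent mesoderm, at 5.57 CPM (2.67 to 10.2), which does not differ beyond the interval from extraembryonic mesoderm, at a log2 ratio of 1.63 (-0.60 to 4.86). Wnt11, a ligand of cell movement, had 6 UMIs in the visceral endoderm of MS-LS, at 2.08 CPM (0.764 to 4.53), and 2 or fewer in each other class there. Definitive endoderm, at 2.4 CPM (0.29 to 8.65), did not differ from visceral endoderm beyond the interval. No named class of EHF held more than 2 UMIs of Wnt11. The heat map of levels by class sets these sites side by side.

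**Figure D2:**
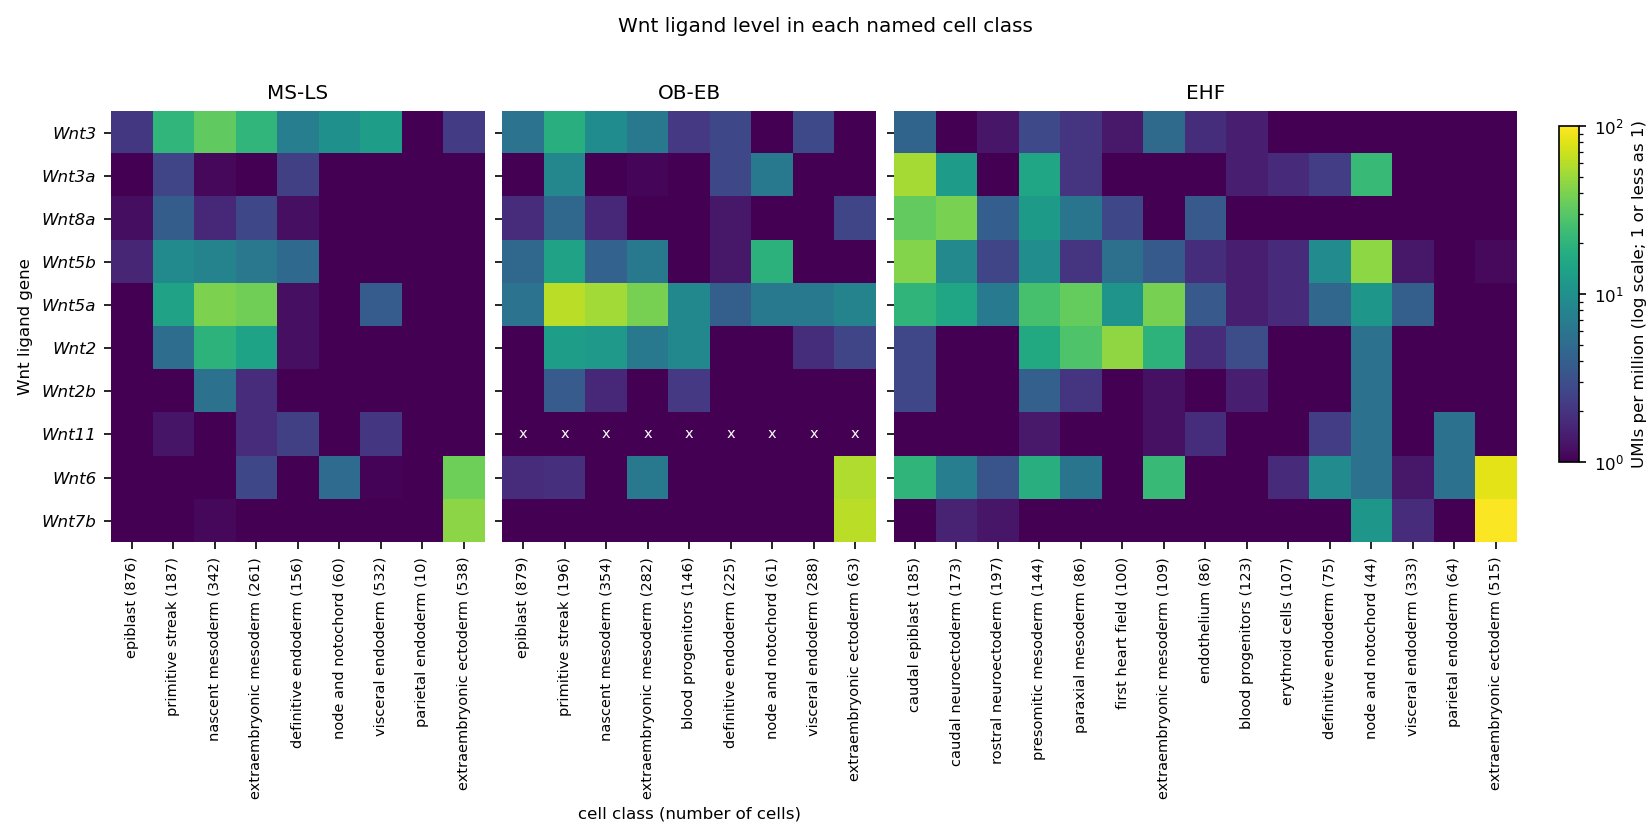
Level of each Wnt ligand in each named class, with genes down the vertical axis, classes with their cell numbers along the horizontal axis and color giving CPM on a log scale, 1 panel per library and x where Wnt11 is unlisted. Wnt7b stands out in the extraembryonic ectoderm column, at 96.5 CPM in EHF, and Wnt3a in the caudal epiblast column, at 53.3 CPM.

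Wnt6 and Wnt7b were the ligands of the extraembryonic ectoderm class, which holds the named trophoblast cells of these libraries. Both were high in it at each stage, while the streak and mesoderm ligands were low there in MS-LS and EHF. In MS-LS and EHF, Wnt7b hardly left the class, whereas Wnt6 appeared at more sites by EHF. In OB-EB the named class held 42.9% of the Wnt7b UMIs, and an unnamed cluster given below held many of the rest. Wnt7b was at 45.3 CPM (38.0 to 53.4) in the class in MS-LS, 62.6 (40.1 to 93.1) in OB-EB and 96.5 (86.5 to 107) in EHF. Wnt6 was at 36.1 CPM (29.7 to 43.5), 57.3 (35.9 to 86.8) and 83.0 (73.8 to 93.0).

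In MS-LS, the class held 94.6% of the Wnt7b UMIs, with a log2 ratio over other cells of 6.40 (5.38 to 7.64). It held 87.4% of the Wnt6 UMIs, with a log2 ratio of 5.07 (4.31 to 5.93). Both ligands were thus nearly confined to trophoblast before the bud stages. In EHF the class still held 95.3% of the Wnt7b UMIs, at a log2 ratio of 6.58 (5.88 to 7.37), but 56.3% of the Wnt6 UMIs, at 2.61 (2.35 to 2.86). Under Leiden clustering the Wnt7b ratio was 3.20, where the class held 318 cells instead of 515. In OB-EB the log2 ratios were 4.53 (3.70 to 5.34) for Wnt7b and 4.36 (3.51 to 5.18) for Wnt6. The Wnt7b ratio there was 7.28 at resolution 2, 7.27 under Leiden clustering and 7.46 in cells with at least 2000 UMIs, outside that interval.

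A UMI of Wnt7b was found in 44.7% of the EHF extraembryonic ectoderm cells and a UMI of Wnt6 in 38.4%, at a median of 6933 UMIs per cell. After thinning to 1500 UMIs the shares were 14.7% and 12.4%. In visceral endoderm, at a median of 6432 UMIs, the shares were 1.20% for Wnt7b and 0.601% for Wnt6, or 0.0% and 0.316% after thinning. The trophoblast shares of Wnt6 and Wnt7b lie far above those in visceral endoderm, where stray UMIs, doublets and low expression cannot be told apart.

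Set beside all genes, 2 of 7 ligands tested were higher in the extraembryonic ectoderm class than in other MS-LS cells, Wnt6 and Wnt7b, against 8.35% of genes. Another 5 were lower, Wnt2, Wnt3, Wnt5a, Wnt5b and Wnt8a, against 17.1%, where Wnt8a, at -1.11 (-4.25 to 0.92) from 2 UMIs, is not resolved from 0. In OB-EB, 2 of 8 were higher, again Wnt6 and Wnt7b, against 14.2% of genes, and Wnt5a was past the ratio on the low side, against 10.0%, from 3 UMIs and at -1.50 (-3.79 to 0.06), not resolved from 0. The 63 cells of that class gave few counts, so a low level is hard to see there. In EHF, 2 of 8 were higher, the same pair, against 7.37%, and the other 6 were lower, Wnt2, Wnt3, Wnt3a, Wnt5a, Wnt5b and Wnt8a, against 20.3%. EHF trophoblast thus split the ligands tested into a pair it carries and a group it nearly lacks. The ligands' median log2 ratio in this class was -2.25 in MS-LS and -3.37 in EHF, against -0.07 and -0.09 for all genes. Wnt3 had 0 UMIs in the EHF class, so -3.37 is an upper bound. In OB-EB, Wnt3, Wnt3a and Wnt5b had 0 UMIs in the class, so the ligands' median of 0.44 there is an upper bound, and 1458 genes at a bound enter the 0.27 of all genes.

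Not all trophoblast of OB-EB was in the named class. An unnamed cluster of 183 cells with Fabp3 and Elf5 among its leading genes, cluster 11, had 50.7 CPM (33.7 to 73.3) of Wnt7b and 30.8 CPM (17.9 to 49.3) of Wnt6. It held 50% of the Wnt7b UMIs and 30.9% of the Wnt6 UMIs of that library. It was chosen after its values were seen, and its cells are among the other cells in the OB-EB ratios above.

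The larger clusters inside the EHF trophoblast class, 3 of 4, divided the 2 ligands. Cluster 1, with Rhox6 and Ascl2 high, had 118 CPM (101 to 137) of Wnt6 and 73.1 CPM (59.6 to 88.6) of Wnt7b. Cluster 4, with Elf5 and Id2 among its leading genes, had 78.6 CPM (62.7 to 97.3) of Wnt6 and 128 CPM (108 to 151) of Wnt7b. Cluster 10, with Eomes and Elf5, had 38.7 CPM (27.5 to 52.9) of Wnt6 and 98.2 CPM (79.8 to 120) of Wnt7b. Wnt6 was therefore lower at each step across these clusters, with log2 ratios of 0.58 (0.20 to 0.98) for cluster 1 over 4 and 1.02 (0.46 to 1.61) for 4 over 10. Wnt7b peaked in cluster 4 instead, with a log2 ratio of -0.81 (-1.19 to -0.43) for cluster 1 over 4 and 0.38 (0.00 to 0.77) for 4 over 10.

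Trophoblast marker genes also differed across the clusters that divide Wnt6 and Wnt7b. Ascl2, a gene of the ectoplacental cone and spongiotrophoblast lineage, was at 188 CPM in cluster 1, 137 in cluster 4 and 74.4 in cluster 10. Esrrb, a gene of trophoblast stem cells, was at 4.97, 18.7 and 46.6 CPM in that order. Elf5 was at 87.3, 226 and 272 CPM. Wnt6 thus ran with Ascl2 and against Esrrb and Elf5 across the 3 larger clusters, a description from 1 library. The remaining EHF cluster, 29, of 35 cells with a median of 1574 UMIs, had 87.8 CPM (32.2 to 191) of Wnt6 and 58.5 (15.9 to 150) of Wnt7b, intervals too wide to place it. Between the 2 larger clusters of the MS-LS class, 0 and 7, neither ligand differed beyond its interval, with log2 ratios of -0.42 (-1.02 to 0.16) for Wnt6 and -0.18 (-0.70 to 0.33) for Wnt7b. A smaller MS-LS cluster, 23, of 25 cells, had 18.5 CPM (5.05 to 47.5) of Wnt6 and 23.2 (7.53 to 54.1) of Wnt7b.

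Wnt6 had a site outside trophoblast in EHF that Wnt7b lacked. Cluster 18, of 105 cells, had 161 CPM (132 to 195) of Wnt6 from 107 UMIs, 20.4% of the library's Wnt6 UMIs, and 3.01 CPM of Wnt7b from 2 UMIs. It carried Tfap2a at 52.7 CPM, Dlx5 at 25.6 and Krt18 at 660, with Elf5 at 4.52 and no UMI of Rhox6. Surface ectoderm markers scored best in it, but 1 detected marker was too few for a name, and it was chosen after its values were seen. A UMI of Wnt6 was in 49.5% of its cells, or 18.3% after thinning, at a median of 5418 UMIs. Lower levels of Wnt6 were found in the extraembryonic mesoderm of EHF at 22.1 CPM (13.1 to 34.9), in caudal epiblast at 20.4 (12.9 to 30.6) and in presomitic mesoderm at 17.8 (9.48 to 30.5), which do not differ beyond their intervals. The plot of trophoblast clusters shows the different courses of the pair.

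**Figure D3:**
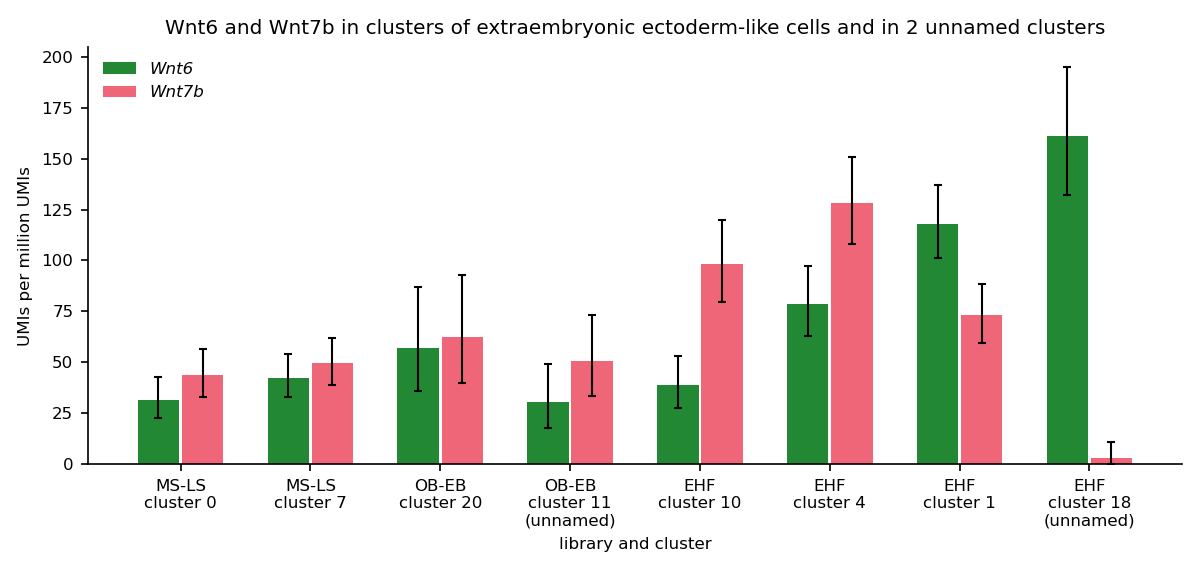
Level of Wnt6 and Wnt7b in CPM in the clusters of the extraembryonic ectoderm class, without clusters 23 and 29 of 25 and 35 cells, and in 2 unnamed clusters, with library and cluster along the horizontal axis and 95% intervals as bars. In EHF, Wnt6 goes from 118 in cluster 1 to 38.7 in cluster 10, and cluster 18 has 161 of Wnt6 and 3.01 of Wnt7b.

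Comparing stages inside a class lessens the effect of cell mixture on Wnt levels but does not remove it. In the extraembryonic ectoderm class Rhox6 was at 45.3 CPM in MS-LS and 113 in EHF, and Esrrb at 46.9 and 20.8, so a change in Wnt6 or Wnt7b per cell and a change in the kinds of trophoblast cells cannot be told apart. In the extraembryonic ectoderm class both trophoblast ligands were higher in EHF than in MS-LS, and OB-EB lay between. Wnt6 had a log2 ratio of 1.20 (0.88 to 1.53) for EHF over MS-LS, and Wnt7b had 1.09 (0.80 to 1.39). All genes of the class had a median of 0.24 in the same comparison, over 9777 genes, so both ligands exceeded the shift of the whole class. By the count used above, 2 of 2 ligands tested were higher, against 12.6% of genes, and 0 were lower, against 5.21%. At a log2 ratio of 1.5 the number of ligands higher was 0. OB-EB over MS-LS gave 0.67 (-0.07 to 1.34) for Wnt6 and 0.47 (-0.22 to 1.10) for Wnt7b, which the counts do not resolve from 0.

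Wnt3 was lower in OB-EB than in MS-LS in 3 classes outside the streak. Nascent mesoderm had a log2 ratio of -1.79 (-2.87 to -0.84), extraembryonic mesoderm -1.67 (-3.26 to -0.34) and visceral endoderm -2.27 (-4.61 to -0.61). Primitive streak had -0.22 (-1.12 to 0.64), so no change was resolved at the source of mesoderm. Epiblast went the other way, at 1.44 (0.17 to 2.80), from 2.12 CPM to 5.73. Wnt3 messages were thus scarcer in the named mesoderm and visceral endoderm classes of the later library. The named nascent mesoderm class of OB-EB held 354 cells. Unnamed OB-EB clusters 0 and 3, of 275 and 229 cells, also scored best for nascent mesoderm and are outside it. From MS-LS to EHF, visceral endoderm had a log2 ratio of -3.88 (-6.98 to -1.93) and extraembryonic mesoderm -2.08 (-4.07 to -0.53). Unnamed EHF cluster 5, which scores best for nascent mesoderm, is outside these classes and had the Wnt3 level given above.

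Wnt5a was higher in the later streak, while the named mesoderm classes showed no resolved change. The primitive streak class had a log2 ratio of 2.12 (1.40 to 2.88) for OB-EB over MS-LS, while nascent mesoderm had 0.38 (-0.14 to 0.88) and extraembryonic mesoderm 0.08 (-0.61 to 0.76). Epiblast had 3.02 (1.22 to 5.44), from 3 UMIs to 16. Extraembryonic mesoderm had 0.09 (-0.63 to 0.79) for EHF over MS-LS, no resolved change in the named class. Unnamed EHF cluster 16, which scores best for extraembryonic mesoderm, is outside that class and had the higher Wnt5a level given above. The OB-EB streak class has Lefty2 and Mesp1 among its leading genes, and the Wnt5a level depends on how the streak is drawn, as the authors' streak cells show below.

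Wnt5b had a log2 ratio of 1.5 (0.07 to 3.06) in epiblast for OB-EB over MS-LS and of 0.63 (-0.52 to 1.79) in primitive streak. Wnt3a had 1.70 (-0.14 to 3.85) in primitive streak, from 4 UMIs to 9, and in EHF most of its UMIs in named classes were in caudal ones. The main clustering named no caudal epiblast in OB-EB, while resolution 8 named 60 such cells, Leiden clustering 107 and cells with at least 2000 UMIs 76. Wnt2 had 1.34 (-0.02 to 2.80) in primitive streak and -0.71 (-1.72 to 0.22) in nascent mesoderm. In extraembryonic mesoderm Wnt6 was at 2.70 CPM in MS-LS, 6.49 in OB-EB and 22.1 in EHF, a log2 ratio of 3.03 (1.26 to 5.44) for EHF over MS-LS from 3 and 18 UMIs. The plot of stage ratios shows Wnt3 on the left and Wnt5a in the streak on the right.

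**Figure D4:**
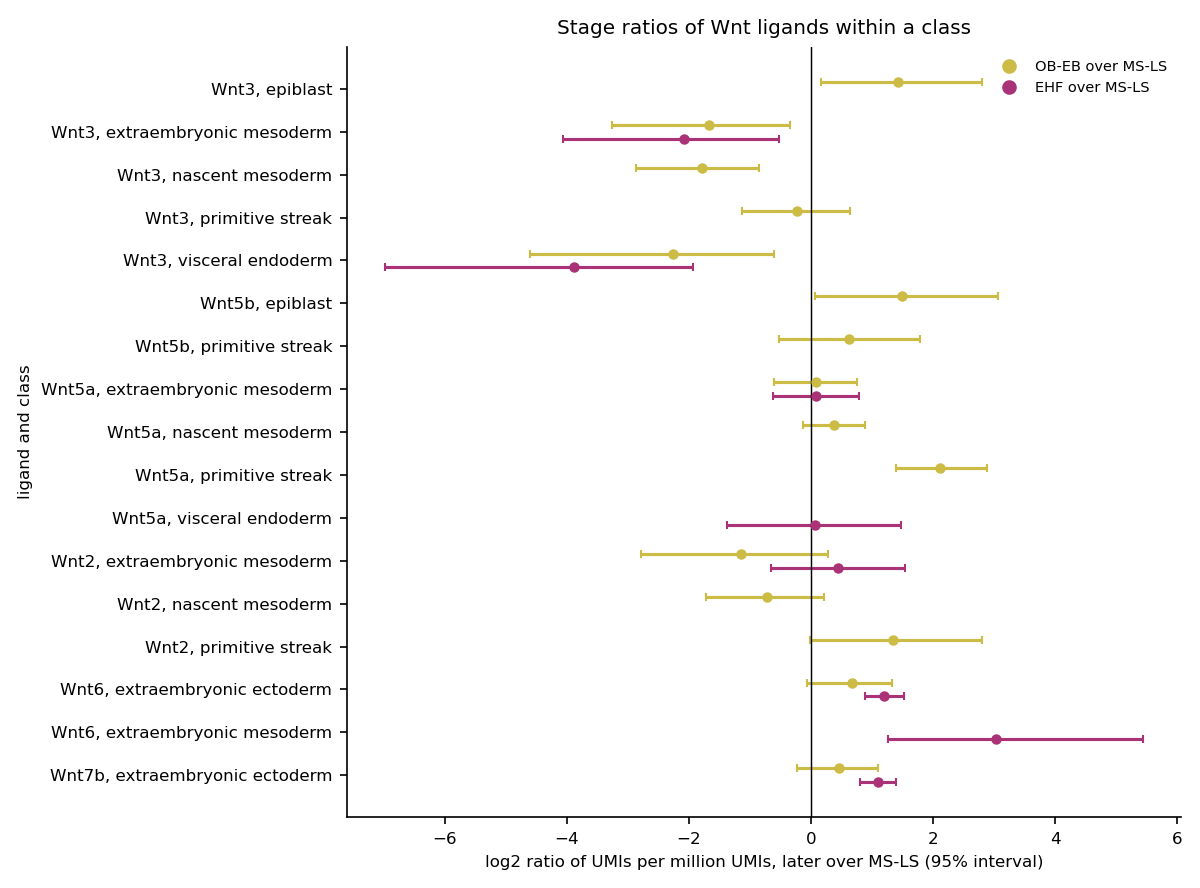
Log2 ratio of CPM of a later library over MS-LS inside a class, with ligand and class down the vertical axis, points for the ratio and bars for the 95% interval. Wnt3 in visceral endoderm lies at -2.27 and Wnt5a in primitive streak at 2.12 for OB-EB over MS-LS.

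The authors gave barcodes for the cells they called primitive streak, which allows the same ligands to be read in a second grouping of the same cells. The MS-LS group has 318 cells, 173 of which were in the streak class above, and the OB-EB group has 252, of which 50 were in that class and 186 were unnamed. Wnt3 was at 20.5 CPM (14.8 to 27.6) in MS-LS and 10.8 (4.68 to 21.4) in OB-EB. Wnt5a was at 10.5 CPM (6.57 to 15.9) and 24.4 (14.5 to 38.5). Wnt3a was at 2.38 CPM (0.773 to 5.56) and 9.48 (3.81 to 19.5), Wnt8a at 3.33 (1.34 to 6.87) and 8.13 (2.98 to 17.7), and Wnt5b at 6.19 (3.30 to 10.6) and 13.5 (6.50 to 24.9). In the authors' cells the log2 ratio of OB-EB over MS-LS was 1.22 (0.23 to 2.18) for Wnt5a, 1.99 (0.12 to 3.99) for Wnt3a and -0.92 (-2.22 to 0.19) for Wnt3. Both groupings thus had a later streak with more Wnt5a, and in neither was a change of Wnt3 resolved. For Wnt5a, all cells of the libraries together had 1.27 (0.98 to 1.56) in the same comparison. The authors' OB-EB streak cells had 0.18 (-0.60 to 0.87) over the other cells of that library. In the authors' cells the Wnt5a difference is thus not shown to be particular to the streak. In the 36 cells the authors placed in the anterior streak, of which 26 were in the definitive endoderm class above and 4 in the streak class, Wnt5b had 3 UMIs, at 18.2 CPM (3.75 to 53.1), and Wnt3 had none.

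Single cells with a ligand UMI mostly showed 1 kind. With so few ligand UMIs per cell 2 kinds are seldom seen, so how many kinds a cell makes was not tested. In the EHF extraembryonic ectoderm class 63.9% of cells (59.6 to 68.0) had a ligand UMI and 21.6% had 2 or more ligands, and after thinning these shares were 26.1% and 1.41%. Caudal epiblast had 62.7% (55.3 to 69.7) and 25.9%, or 25.0% and 1.63% after thinning. Visceral endoderm of EHF had 7.21% and 0.601%, or 2.53% and 0.0%. Trophoblast and the tail end were thus the EHF classes, among those counted, with the largest share of ligand-bearing cells.

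In MS-LS, nascent mesoderm had 40.1% of cells with a ligand and 11.4% with 2 or more, or 14.4% and 1.47% after thinning. Epiblast had 4.0% with a ligand, or 1.49% after thinning. The OB-EB streak class had 50% and 12.2%, or 15.3% and 1.02%. Ligand messages were thus far more common in cells that had left the epiblast than in the epiblast. At full depth, which differs between libraries, pairs of ligands shared by 3 cells or more numbered 12 of 45 in MS-LS, 6 of 36 in OB-EB and 24 of 45 in EHF. After thinning, such pairs were Wnt3 with Wnt5a in MS-LS and Wnt2 with Wnt5a in OB-EB. In EHF they were Wnt3a with Wnt8a and Wnt6 with Wnt7b.

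Wnt7b was found in 52.0% (44.8 to 59.2) of the EHF extraembryonic ectoderm cells with Wnt6 and in 40.1% (34.6 to 45.7) of those without. After thinning it was in 11.3% (4.66 to 21.9) of cells with Wnt6, 7 of 62, and in 15.1% (11.9 to 18.9) of those without. These intervals overlap, so whether cells with Wnt6 hold Wnt7b more or less often at equal depth is not resolved. Among nascent mesoderm cells of MS-LS, Wnt5a was in 29.4% (17.5 to 43.8) of those with Wnt3 and in 18.2% (14.0 to 23.1) of those without, at full depth and with intervals that overlap. The plot of ligands per cell sets the classes next to each other at full and at equal depth.

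**Figure D5:**
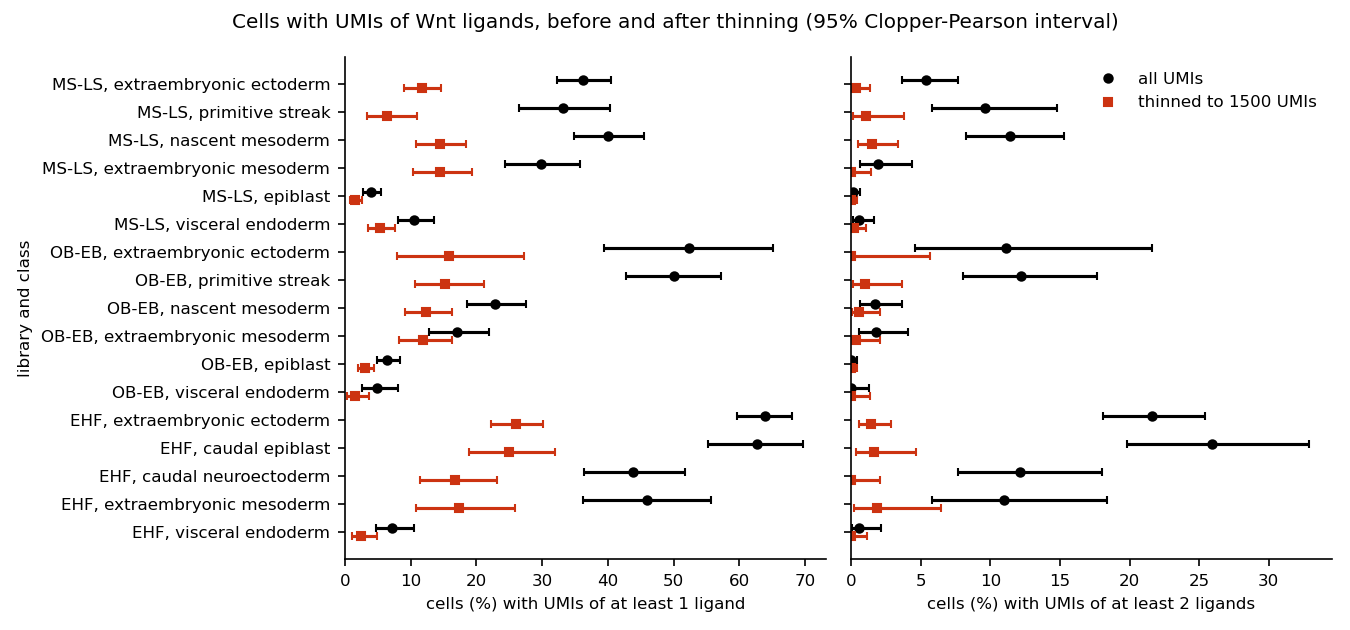
Share of cells in percent with UMIs of at least 1 ligand and of 2 or more, with library and class down the vertical axis, and points for all UMIs and for cells thinned to 1500 UMIs. The extraembryonic ectoderm class of EHF has 63.9% with a ligand at full depth and 26.1% after thinning.

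Likeness of course across 31 classes was described by correlation of log levels over 11335 genes. Wnt7b ran closest to Bmp8b (r = 0.986), Gm9 (0.986) and Itga7 (0.977), and Wnt6 to Htra1 (0.881), Tmem114 (0.876) and Dnmt3l (0.850). Wnt3a ran closest to Hoxa5 (0.906), Hes7 (0.871) and Hoxaas3 (0.865). Wnt8a was nearest to Gbx2 (0.885), Nkx1-2 (0.863) and Cdx1 (0.856), and Wnt5b to Wnt3a (0.829), Rxrg (0.809) and Prex1 (0.774). The correlation runs over the same classes in which the ligands were read. Hes7, Gbx2, Nkx1-2, Cdx1, Dnmt3l, Mesp1 and Mixl1 are also naming markers. The correlation therefore adds no separate evidence on where a Wnt ligand is found. Wnt5a was nearest to Pcdh18 (0.869), Chst2 (0.851) and Mesp1 (0.851), Wnt2 to Rbm24 (0.840), Lix1l (0.824) and Rasgrp3 (0.807), and Wnt3 to Slpi (0.795), Lor (0.752) and Mixl1 (0.745). Wnt2b and Wnt11 had too few UMIs for this.

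Between ligands, Wnt6 and Wnt7b had r = 0.827, Wnt3a and Wnt8a 0.818, Wnt2 and Wnt5a 0.721, and Wnt5b and Wnt8a 0.598 over the same classes. Wnt3 and Wnt3a, which share a role in mesoderm formation at different times, had r = -0.014. Along the chromosomes of GRCm38, Wnt6 lies 6193 bases from Wnt10a on the same strand, Wnt3a lies 16175 bases from Wnt9a and Wnt3 lies 24328 bases from Wnt9b, with 0 coding genes between. Wnt10a is listed in the EHF table alone, at 5.33 CPM (1.96 to 11.6) in caudal epiblast and 1.97 (0.792 to 4.06) in extraembryonic ectoderm, while Wnt6 had 20.4 and 83.0 CPM in these classes. Wnt9b had 4, 3 and 4 UMIs in the libraries, so the neighbor of Wnt3 was nearly silent where Wnt3 was found.

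Ligand-making classes were then read for genes that release, receive or answer Wnt. Trophoblast of EHF was poor in most of these, while caudal epiblast was rich in response genes. Genes of these lists were not held out of clustering, and T, Cdx1, Cdx2, Frzb and Cer1 are also naming markers. In the EHF extraembryonic ectoderm class, 0 of 10 response genes tested were higher than in other cells and 7 were lower, with a median log2 ratio of -3.32, where 7.37% of all genes were higher and 20.3% lower. Axin2 was at -2.17 (-2.97 to -1.48), Lef1 at -4.44 (-5.45 to -3.60) and Sp5 at -4.79 (-6.67 to -3.42). EHF trophoblast thus had low levels of common response genes next to its Wnt6 and Wnt7b messages. In the earlier libraries 5 of 9 response genes were lower in MS-LS and 4 of 10 in OB-EB, where 17.1% and 10.0% of all genes were lower, with medians of -1.22 and -0.68. Cdx2 was higher in both, and whether the stages differ was not tested.

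In the EHF class, where 20.3% of all genes were lower, secreted antagonists were lower for 7 of 7 tested, with a median of -3.69. Receptors and co-receptors were lower for 10 of 16, with a median of -1.31. R-spondins and their receptors were lower for 3 of 4, with a median of -2.89. Rspo3 was at -5.11 (-6.24 to -4.18) and Fzd2 at -5.01 (-7.30 to -3.46). In MS-LS, antagonists were lower for 6 of 6 and receptors for 9 of 15, against 17.1% of all genes. In OB-EB these lists had 3 of 5 and 1 of 15 lower, against 10.0%. Of the list for ligand lipidation and release 2 of 4 were lower in the EHF class, Porcn at -3.50 (-6.56 to -1.61) and Notum at -4.54 (-9.86 to -2.03). Porcn rests on 2 UMIs there, and Notum does not itself lipidate or release Wnt. Of the other Wnt ligands 1 of 1 was lower, Wnt4 at -2.25. Wls, which carries Wnt proteins to the surface, was at 56.5 CPM in trophoblast of EHF and 29.3 in that of MS-LS, a log2 ratio of 0.95 (0.58 to 1.32). Tmed5, the other release gene tested, was at 37.1 CPM in EHF and 40.0 in MS-LS. The interval of Wls overlaps those of Wnt6 and Wnt7b in the same comparison.

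In the caudal epiblast class, 8 of 10 response genes were higher and 0 lower, with a median log2 ratio of 1.55, where 5.83% of all genes were higher and 11.5% lower. T and Cdx1 are among the 8 and were also used to name the class, so 6 of the 8 are free of that. Cdx2, also among the 8, is a naming marker of another type, caudal mesoderm. Sp5 was at 2.56 (2.26 to 2.84) and Axin2 at 1.27 (0.80 to 1.71). The class with high Wnt3a, Wnt8a and Wnt5b thus also had high response genes, a comparison of classes and not of single cells. R-spondins and their receptors were higher for 2 of 4 and lower for 1, and receptors higher for 3 of 16 and lower for 5. Antagonists were higher for 2 of 7 and lower for 3. Of the list for ligand lipidation and release 1 of 4 was higher, Notum at 2.0 (1.24 to 2.69). Notum does not itself lipidate or release Wnt. In the streak classes, response genes were higher for 4 of 9 in MS-LS and for 5 of 10 in OB-EB, with medians of 0.85 and 0.98, where 4.67% and 6.57% of all genes were higher. In MS-LS 1 was lower, Cdx2, against 10.8% of all genes, and in OB-EB 0 were lower, against 8.60%. T is among the higher genes in both and is a naming marker of the streak. Lef1 and Sp5 passed a log2 ratio of 1 in the streak classes of both stages and in caudal epiblast.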

How the data were processed

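The counts deposited by the authors were used as they stand, with no further cell filter. Per the submitters' processing notes, these came from Cell Ranger 3.0.2 on GRCm38, with R 3.6.1 and Seurat 3. Cells were clustered per library in Seurat 5.3.0 on R 4.3.3 (Louvain, resolution 4.5, 2000 variable genes, 50 components), and clusters were named when at least 3 markers of a type were detected its score led by 0.2, and no other type had more markers among the 10 leading genes. UMIs were summed per class. Poisson, Clopper-Pearson and ratio intervals used scipy 1.17.1 and numpy 2.4.6 in Python 3.11.15, with a floor of 3 UMIs for zeros. Leiden clustering used scanpy 1.11.5 with leidenalg 0.10.2, and figures matplotlib 3.10.9. The log2 ratio and interval calculations were tested on simulated counts. Clustering, naming, thinning and correlation were not. Outside the 10 ligands, genes are named as class or cluster markers, as chromosome neighbors, as the 3 nearest in likeness, or from 6 lists: other Wnt ligands, ligand lipidation and release, receptors and co-receptors, R-spondins and their receptors, secreted antagonists, and response genes. Ligands and lists were chosen with earlier results of these data known.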

Additional observations from a re-analysis of the deposited data

Results flagged for a closer look

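Wnt3 did not go the same way in every class between MS-LS and OB-EB. Its log2 ratio of OB-EB over MS-LS was 1.435 in epiblast, where it was higher later, and -1.672 in extraembryonic mesoderm, -1.787 in nascent mesoderm and -2.265 in visceral endoderm, where it was lower later. The epiblast value rests on 9 and 16 UMIs and the visceral endoderm value on 38 and 3 UMIs. The difference between the classes was not tested, because each stage has 1 library.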

How the results depend on the processing

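For 81 ratios of Wnt ligands, 418 alternatives were run: 408 lay within the interval of the main value, 10 lay outside it with the same sign, 0 reversed, and 9 more gave no value because resolution 2 named no primitive streak or nascent mesoderm class in OB-EB. No paired analysis was possible because each stage has 1 library. With Leiden clustering, where the EHF extraembryonic ectoderm class held 318 cells instead of 515, Wnt7b in that class over other cells was 3.199 (main 6.577), Wnt6 there was 1.603 for EHF over MS-LS (main 1.199) and 1.40 for EHF over OB-EB (main 0.53), Wnt5a in OB-EB primitive streak over other cells was 1.35 (main 1.80), and Wnt6 in caudal epiblast was -1.05 (main -0.35). Wnt7b in OB-EB extraembryonic ectoderm over other cells was 7.28 at resolution 2, 7.27 under Leiden and 7.46 in cells with at least 2000 UMIs (main 4.53). At resolution 8, Wnt2 in extraembryonic mesoderm was -2.92 for OB-EB over MS-LS (main -1.15) and 4.01 for EHF over OB-EB (main 1.60). Ligands past the fold for EHF over MS-LS in extraembryonic ectoderm numbered 0 at a log2 ratio of 1.5 and 7 with no minimum of UMIs (main 2). Genes past the fold at 1.5 numbered 1895, 1332 and 2459 in extraembryonic ectoderm of MS-LS, OB-EB and EHF (main 3057, 2765, 3720), 827 and 644 in primitive streak of MS-LS and OB-EB (main 1850, 1734), 1181 in caudal epiblast (main 2339) and 760 for EHF over MS-LS in extraembryonic ectoderm (main 1740). With at least 50 UMIs they numbered 1032 in OB-EB primitive streak and 1028 for EHF over MS-LS in extraembryonic ectoderm, and with no minimum 3045 and 2966 in primitive streak, 3521 in caudal epiblast and 3537 for EHF over MS-LS. Leaving out the highest 5% of doublet scores (182, 200 and 175 cells), averaging the CPM of each cell, and totals without mitochondrial and ribosomal protein genes moved no ratio. The cause of these differences was not tested. Limits: each stage has 1 library of several embryos, so intervals hold counting error and no spread between embryos; 33.0% to 37.6% of OB-EB and EHF cells had no class name; thinned shares depend on the depth chosen.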

Other observations

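Wnt4, a ligand of kidney and gonad in later development, had 3 UMIs in MS-LS, 25 in OB-EB and 47 in EHF. In extraembryonic mesoderm it was at 9.74 CPM (4.45 to 18.5) in OB-EB and 8.58 CPM (3.45 to 17.7) in EHF, and in endothelium of EHF at 7.29 CPM (1.99 to 18.7). Extraembryonic mesoderm thus carried Wnt4 next to Wnt5a, but was not its only site. Unnamed EHF cluster 18 had 9.04 CPM (3.32 to 19.7) of Wnt4. The log2 ratio of endothelium over other EHF cells, 1.75 (-0.19 to 3.21), is not resolved from 0. Of the other Wnt ligands, Wnt16 had 8 UMIs, 3 of them in paraxial mesoderm, and Wnt7a and Wnt8b had 3 and 4 UMIs in EHF.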
